A study of Homo sapiens with 16 samples.

Results

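Keratin genes encode the filament proteins of epithelial cells, and their transcripts were followed here in 2 cancer cell lines exposed to estrogenic compounds. The members are all gene symbols made of KRT, a number and at most 1 letter from A to C, which leaves out the keratin-associated proteins. This gave 55 of the 21453 gene symbols in the deposited tables, 28 of them type I keratins, 26 type II and 1, KRT222, without a type here. T-47D is a breast cancer line and ECC-1 an endometrial cancer line. After 5 days in medium without phenol red and with 10% charcoal-stripped serum, which is low in steroid hormones, each line received 10 nM 17β-estradiol, 100 nM bisphenol A (BPA, a plastics monomer), 100 nM genistein (a soy isoflavone) or 0.02% DMSO, the vehicle, for 8 h. There were 2 libraries for each line and treatment, in 8 groups and 16 in all, from polyadenylated RNA and with no record of strand. The labels do not say whether the 2 libraries come from separate cultures, so p-values measure only the spread between these libraries.

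Keratins assemble as pairs of an acidic type I and a basic type II protein into intermediate filaments, which anchor at desmosomes and hemidesmosomes. Simple, glandular epithelia rest on KRT8 with KRT18, often joined by KRT19 and KRT7. Basal cells of stratified and glandular epithelia use KRT5 with KRT14, cells leaving the basal layer switch to other pairs (KRT4 with KRT13 in moist mucosa), and KRT6, KRT16 and KRT17 mark wounded or fast-renewing epithelium. In breast cancer, KRT8, KRT18 and KRT19 are markers of luminal cells, and KRT5, KRT14 and KRT17 of basal cells.

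Levels are given as scaled RPKM, the deposited reads per kilobase of transcript and per M mapped reads after scaling between libraries. Differences are log2 differences of scaled RPKM + 0.5, tested with limma in 1 model of all 16 libraries, with a Benjamini-Hochberg adjusted p under 0.05 over 13827 genes as the threshold. The added 0.5 pulls the differences of weakly expressed genes toward 0. Estimated depth ran between 17.4 and 29.4 M reads, so that a transcript of 2 kb at 1 RPKM rested on 34.8 to 58.8 reads. The lines matched their labelled tissue. Summed over 8 luminal breast markers, T-47D libraries held 1714 to 2364 and ECC-1 libraries 117 to 135 scaled RPKM. Over 6 Mullerian and endometrial markers T-47D held 0.579 to 0.985 and ECC-1 330.0 to 374.8, and the 5 epithelial markers all reached 1 scaled RPKM in both lines. Singly, 7 of the 8 luminal markers were higher in T-47D in DMSO, against 39.6% of all genes, and all 6 Mullerian markers lower, against 37.1%. In ECC-1, 4 of the 8 luminal markers also reached 1 scaled RPKM in at least 1 library, while PIP was at 0 in all. The first estradiol library stood apart from the second for some keratins in each line, such as KRT19 in T-47D (3170 and 2142) and KRT10 in ECC-1 (3.86 and 6.93). For others the 2 were close, such as KRT15 in T-47D (27.9 and 26.7) and KRT6A in ECC-1 (4.0 and 3.98). In the second BPA library of T-47D, KRT5, KRT14 and KRT17 were high.

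To show the sequences in front of a pair of type II keratin genes with opposite line patterns, the 250 bases before the start of KRT5, high in ECC-1, and of KRT4, high in T-47D, are printed from RefSeq on GRCh38.p14. They lie on the minus strand at chr12:52520395-52520644 and chr12:52814117-52814366, and capitals mark a match to a searched motif.
KRT5: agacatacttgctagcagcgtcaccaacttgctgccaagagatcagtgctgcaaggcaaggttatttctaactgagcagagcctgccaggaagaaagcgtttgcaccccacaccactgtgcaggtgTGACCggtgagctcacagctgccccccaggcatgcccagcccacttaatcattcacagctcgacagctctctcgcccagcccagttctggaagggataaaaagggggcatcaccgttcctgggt
KRT4: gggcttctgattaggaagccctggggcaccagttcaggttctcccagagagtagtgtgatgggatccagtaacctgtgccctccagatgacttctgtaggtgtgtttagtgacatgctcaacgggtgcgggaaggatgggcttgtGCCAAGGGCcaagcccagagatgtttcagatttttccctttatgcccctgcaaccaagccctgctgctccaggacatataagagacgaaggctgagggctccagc
The motifs searched, on both strands, were TATAAA, the AP-2 motif GCCNNNGGC and the estrogen response half-site GGTCA, none of which overlaps another here. KRT5 holds 1 GGTCA on the opposite strand and KRT4 holds 1 GCCNNNGGC. Neither window holds TATAAA. Over 35116 promoters of this length, 10.7% hold TATAAA, 19.8% GCCNNNGGC and 32.6% GGTCA, so each match is a common one. Of the 55 keratins, 34 stand in that promoter table.

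Of the 55 keratins, 21 were abundant enough to be tested, which asked for at least 1 RPKM in at least 2 libraries. The other 34 stayed under 1 scaled RPKM in every library, and 16 of them under 0.1. KRT26, a keratin of the hair root sheath, was listed at 0 in all libraries. The highest value among untested keratins was 0.533, for KRT78 in an ECC-1 DMSO library. By class, 5 of 6 keratins of simple epithelia, 8 of 8 of basal and hyperproliferative cells, 4 of 14 of suprabasal and differentiated layers, 3 of 17 of the hair shaft and 0 of 9 of the hair root sheath were tested, beside KRT222. KRT20, the simple keratin of gut and urothelium that was not tested, reached at most 0.167 in T-47D and 0.144 in ECC-1. KRT1, the usual partner of KRT10 in epidermis, reached at most 0.0204 in T-47D and 0.0268 in ECC-1. Some untested keratins were listed above 0 in 1 line only. KRT24 ran between 0.0918 and 0.252 in T-47D, with 0 in the 8 ECC-1 libraries. KRT74 had 0 in the 8 T-47D libraries and ran between 0.0189 and 0.172 in ECC-1.

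Both lines were dominated by simple-epithelial keratins, and they differed mainly in what accompanied KRT8 and KRT18. T-47D carried KRT19, KRT7, KRT23, KRT15 and KRT4 at much higher levels, whereas ECC-1 carried KRT5, KRT17, KRT14 and the KRT6 genes. Between T-47D and ECC-1 in DMSO, 17 of the 21 tested keratins differed, 10 higher and 7 lower in T-47D, against 76.7% of all genes tested (39.6% higher and 37.1% lower). The share among keratins was thus near that of all genes. Of the 21, 6 passed the filter through T-47D alone, among them KRT15, KRT16 and KRT4, and 5 through ECC-1 alone, KRT5, KRT14, KRT6A, KRT6B and KRT6C. The filter favours a difference in level for these 11 without fixing it, so their calls describe the lines and are not taken as added evidence. In bulk RNA, fewer cells expressing a gene and less RNA per cell cannot be told apart.

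**Figure D1:**
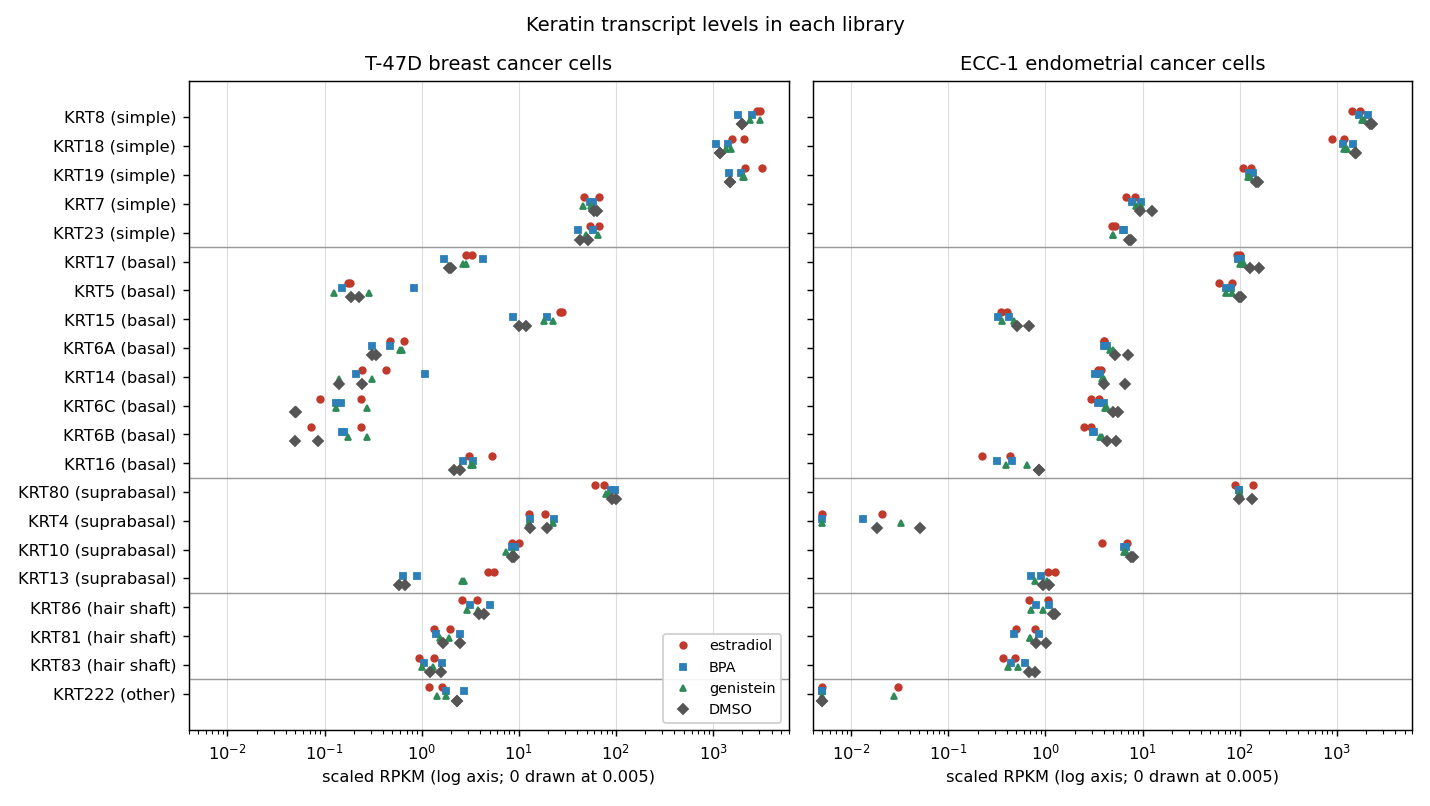
Scaled RPKM (log axis) of the 21 tested keratins in each library, T-47D on the left and ECC-1 on the right, grouped by class, with 1 point per library and colours for the treatments. KRT8 and KRT18 lie near the right end of the axis in both lines, KRT19 in T-47D only, and KRT5, KRT17 and the KRT6 genes lie further right in ECC-1.

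KRT8, the type II keratin of simple epithelia, had 1973 and 2005 scaled RPKM in T-47D DMSO libraries, against 2182 and 2282 in ECC-1. Its type I partner KRT18 had 1174 and 1173 in T-47D, against 1539 and 1571 in ECC-1. Neither passed the test (log2 difference -0.17 for KRT8, adjusted p = 0.443, and -0.41 for KRT18, adjusted p = 0.0692, limma). Both directions depend on the scaling: with quantile normalization KRT8 was higher in T-47D by 0.85 and KRT18 by 0.35, both past the threshold. KRT18 passed as lower in T-47D without scaling (-0.51, adjusted p = 0.0301) and without either estradiol library of ECC-1 (adjusted p = 0.0373 and 0.0372). Much of their sequence occurs elsewhere. Of the 36-base stretches, 49.5% for KRT8 and 58.1% for KRT18 are shared with other annotated keratin genes or pseudogenes, KRT8P3 and KRT18P11 most of all. The sources used here do not say how reads that match several places were counted.

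KRT19, a type I keratin of ducts and glands that lacks the usual tail domain, had 1493 and 1484 scaled RPKM in T-47D, against 147 and 155 in ECC-1. The level was 9.84-fold higher in T-47D, with a log2 difference of 3.30 (SE 0.178, adjusted p = 1.64e-10). KRT7, the type II keratin of glandular ducts, had 63.4 and 59.0 in T-47D, against 9.36 and 12.4 in ECC-1 (2.45, SE 0.181). For these genes no library of one line reached the range of the other. KRT23, a type I keratin, had 43.0 and 51.4 in T-47D, against 7.33 and 7.53 in ECC-1 (2.58, SE 0.167). Across treatments KRT23 ran between 41.1 and 66.5 in the 8 T-47D libraries and between 4.83 and 7.53 in the 8 ECC-1 libraries.

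Of the 8 keratins of basal and hyperproliferative cells, 6 were lower in T-47D and 2, KRT15 and KRT16, were higher. KRT5, the type II keratin of basal cells, had 0.189 and 0.227 scaled RPKM in T-47D, against 102.5 and 98.0 in ECC-1. It was 482-fold lower in T-47D in mean level (log2 difference -7.15, SE 0.245, adjusted p = 7.42e-13), and its T-47D values rest on an estimated 5.5 to 35.2 reads a library. Its usual partner KRT14 was far less abundant, at 0.241 and 0.142 in T-47D, against 4.05 and 6.57 in ECC-1 (-3.04, SE 0.284). KRT17, a type I keratin of basal and activated cells, had 2.03 and 1.90 in T-47D, against 126.7 and 156.2 in ECC-1 (-5.84, SE 0.241), and stood above KRT14 in every ECC-1 library. The ECC-1 libraries of these 3 genes all lay above all T-47D libraries. Of the 36-base stretches of KRT14, 39.0% occur in other keratin genes or pseudogenes, with 34.1% for KRT16 and 31.0% for KRT17. The separate values of these type I genes are therefore uncertain.

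The 3 KRT6 genes, type II keratins of wounded epithelium, were also lower in T-47D. KRT6A had 0.342 and 0.310 scaled RPKM in T-47D, against 5.14 and 7.13 in ECC-1 (log2 difference -2.99, SE 0.156). KRT6B had 0.0855 and 0.0502 in T-47D, against 4.27 and 5.37 in ECC-1, and KRT6C had 0.0510 and 0.0499 in T-47D, against 4.93 and 5.63 in ECC-1. The T-47D values of KRT6B and KRT6C rest on an estimated 2.0 to 10.9 reads across its 8 libraries. The 3 genes are near-identical copies each sharing between 42.3 and 50.7% of its 36-base stretches with the copy most like it, so their separate values are uncertain.

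KRT15 and KRT16 went the other way. KRT15, a type I keratin of basal cells and of the stem cells of the hair follicle, had 9.94 and 11.8 scaled RPKM in T-47D, against 0.507 and 0.670 in ECC-1 (log2 difference 3.39, SE 0.254, adjusted p = 8.2e-09). KRT16, the type I partner of KRT6, had 2.48 and 2.14 in T-47D, against 0.850 and 0.859 in ECC-1 (1.05, SE 0.211). All 8 T-47D libraries lay above all 8 ECC-1 libraries for both.

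The mucosal pair KRT4 and KRT13 did not run together. KRT4, the type II partner, had 13.0 and 19.6 scaled RPKM in T-47D, against 0.0183 and 0.0510 in ECC-1, where at most an estimated 4.0 reads a library support it and 3 of 8 libraries were listed at 0. Its log2 difference of 4.95 depends on the added 0.5, and ran between 4.04 and 6.91 over the alternatives tried. KRT13, the type I partner, had 0.580 and 0.681 in T-47D, against 1.10 and 0.936 in ECC-1 (-0.42, SE 0.152, adjusted p = 0.0193). That call ended without the first DMSO library of T-47D (-0.36, adjusted p = 0.106) or of ECC-1 (-0.35, adjusted p = 0.119).

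KRT10, the type I keratin of suprabasal epidermis, had 8.42 and 8.82 scaled RPKM in T-47D, against 7.57 and 7.91 in ECC-1. KRT80, a type II keratin of differentiating epithelia, had 90.2 and 99.1 in T-47D, against 97.2 and 135.2 in ECC-1. Neither difference passed the test, at log2 0.15 (95% interval -0.25 to 0.54) for KRT10 and -0.28 (-0.66 to 0.11) for KRT80, although KRT80 passed without the first DMSO library of ECC-1 (-0.51, adjusted p = 0.0387). The hair shaft keratins KRT86, KRT81 and KRT83, all type II, were higher in T-47D by log2 differences of 1.42 (SE 0.215), 0.86 (SE 0.238) and 0.62 (SE 0.183), at levels of at most 5.05 scaled RPKM. The calls of KRT81 and KRT83 ended without the second DMSO library of T-47D (0.62 and 0.47, adjusted p = 0.0639 and 0.0713). KRT86 holds 41.8% of the 36-base stretches of KRT81, so the pair is not well separated. KRT222, annotated among the type I genes of chromosome 17, ran between 1.19 and 2.74 in T-47D, while 6 of the 8 ECC-1 libraries listed it at 0.

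When all 8 libraries of each line were compared, 10 keratins had no overlap and were higher in T-47D, against 34.9% of all genes, and 6 were lower, against 32.6%. KRT13, called lower in T-47D in DMSO, is not among those 6. Of the 10 higher, 6 passed the filter through T-47D alone, and of the 6 lower, 5 passed through ECC-1 alone. The filter favours a lack of overlap for such genes, so these counts describe the lines and are not taken as added evidence. The sum of all keratins was 4530 to 8524 scaled RPKM in T-47D, against 2783 to 4457 in ECC-1, or 1.17 to 2.02% and 0.682 to 0.955% of all RPKM. KRT8, KRT18 and KRT19 together made up 94.56 to 96.8% of that sum in T-47D and 87.29 to 92.11% in ECC-1. The summed type I level was 1.15 to 1.68 times the type II level in T-47D, against 0.68 to 0.761 times in ECC-1. With estradiol the sum was 8524 and 6763 in T-47D, against 4885 and 4931 with DMSO, and 2783 and 3286 in ECC-1, against 4245 and 4457 with DMSO. KRT19 alone held 29.5 to 37.2% of the keratin sum in T-47D, against 3.32 to 4.66% in ECC-1.

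**Figure D2:**
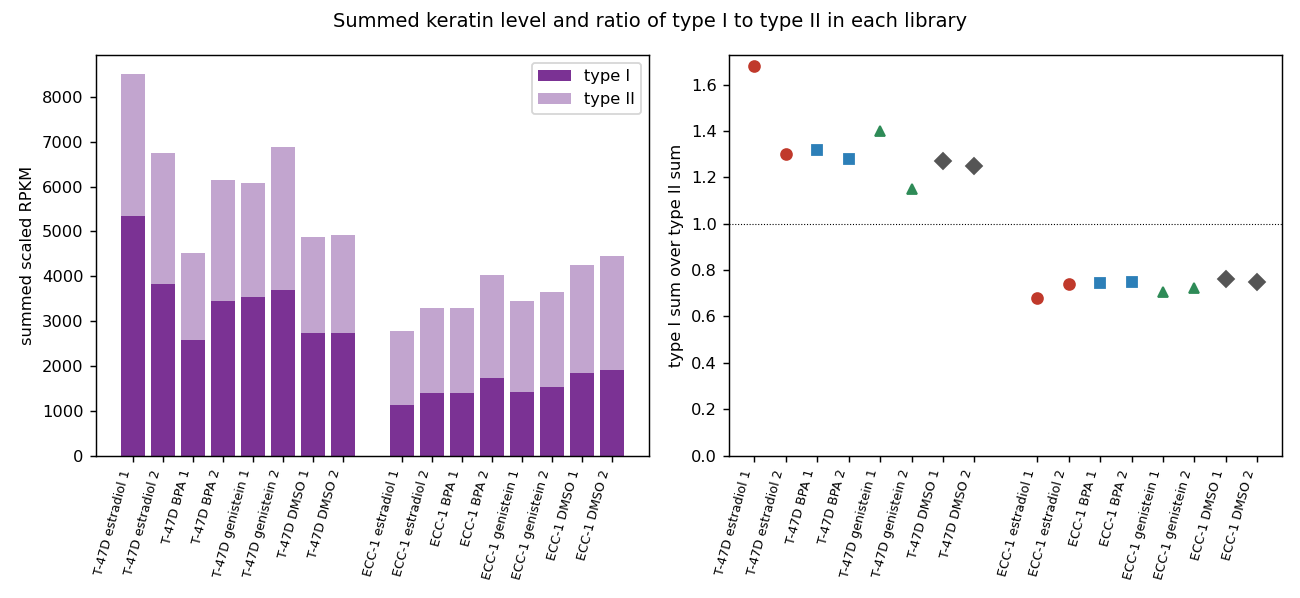
Left, summed scaled RPKM of type I and type II keratins in each library, stacked. Right, the ratio of the type I sum to the type II sum, with a dotted line at 1. All T-47D libraries lie above 1 and all ECC-1 libraries below it, and the first estradiol library of T-47D has the highest sum and ratio.

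In T-47D cells, 8 h of estradiol raised KRT13, KRT15 and KRT19. These 3 of 21 tested keratins passed the test, all higher, against 3.22% of all genes (2.1% higher and 1.11% lower). A further 5 higher and 2 lower keratins had an unadjusted p under 0.05, as had 14.8% of all genes, but did not pass. The median log2 difference over the 21 was 0.26, against -0.01 over all genes.

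KRT13, the mucosal type I keratin, had 5.49 and 4.78 scaled RPKM with estradiol, against 0.580 and 0.681 with DMSO. Both estradiol libraries lay above every other T-47D and ECC-1 library. The mean level was 8.15-fold that of DMSO (5.14 ± 0.503 and 0.630 ± 0.0714, SD, n = 2 each), with a log2 difference of 2.32 (SE 0.152, adjusted p = 7.79e-07). The call held in all 26 alternatives tried for this gene, with differences between 1.91 and 2.84. Its T-47D values rest on an estimated 19.9 to 223.1 reads a library, and 2.34% of its 36-base stretches occur in other keratin genes or pseudogenes. Over the T-47D libraries the 8 fibroblast markers summed to 16.9 to 31.9 scaled RPKM, the 6 leukocyte markers to 0.857 to 1.39 and the 4 endothelial markers to 0.0846 to 1.28. Of the 3 fibroblast markers tested, 1, LUM, fell with estradiol in T-47D (-0.56, adjusted p = 0.0186).

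KRT15 had 27.9 and 26.7 scaled RPKM with estradiol, against 9.94 and 11.8 with DMSO, and the groups did not overlap. Its log2 difference was 1.29 (SE 0.254, adjusted p = 0.00937), 2.51-fold in mean level. The call ended with array weights (adjusted p = 0.371, limma) and in a fit of the T-47D libraries alone (adjusted p = 0.169). It also ended without the first estradiol library (1.26) and without the first DMSO library (1.17), at nearly the same size.

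KRT19 had 3170 and 2142 scaled RPKM with estradiol, against 1493 and 1484 with DMSO. Both estradiol libraries were above both controls, the first much further than the second. The log2 difference of 0.81 (SE 0.178, adjusted p = 0.021) shrank to 0.53 without the first estradiol library (adjusted p = 0.174) and to 0.42 under quantile normalization (adjusted p = 0.343). The call held in 19 of 27 alternatives, and also ended without the first (adjusted p = 0.106) or the second DMSO library (adjusted p = 0.169). The simple-epithelial pair differed by less. KRT8 had 3016 and 2801 scaled RPKM with estradiol, against 1973 and 2005 with DMSO (0.55, adjusted p = 0.174). KRT18 had 2065 and 1571 with estradiol, against 1174 and 1173 with DMSO (0.62, adjusted p = 0.119). For both, the 2 estradiol libraries lay above the 2 DMSO libraries, although the difference did not pass the test. Without the second estradiol library KRT18 passed (0.82, adjusted p = 0.023), while without the first its difference was 0.42 (adjusted p = 0.543).

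KRT16 had 5.34 and 3.08 scaled RPKM with estradiol, against 2.48 and 2.14 with DMSO (0.71, adjusted p = 0.0996). KRT17 had 3.32 and 2.85 with estradiol, against 2.03 and 1.90 with DMSO (0.54, adjusted p = 0.308). In both genes the estradiol libraries lay above their controls. KRT16 passed without the second estradiol library (1.06, adjusted p = 0.0044) but had a difference of 0.35 without the first (adjusted p = 0.593). KRT17 passed without either BPA library (adjusted p = 0.0413). The other basal keratins stayed under 1 scaled RPKM. KRT5 had 0.182 and 0.174 with estradiol, against 0.189 and 0.227 with DMSO. KRT14 had 0.434 and 0.244 with estradiol, against 0.241 and 0.142 with DMSO. KRT6A had 0.654 and 0.473 with estradiol, against 0.342 and 0.310 with DMSO. None of these 3 passed the test. KRT6B had 0.0723 and 0.238 with estradiol and KRT6C 0.0899 and 0.237, which are a few reads each.

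Other keratins lay at or below their controls with estradiol. KRT80 had 74.7 and 60.5 scaled RPKM with estradiol, against 90.2 and 99.1 with DMSO, and its difference of -0.49 did not pass (adjusted p = 0.204). It passed without both first estradiol libraries (-0.64, adjusted p = 0.0263), but not without that of T-47D alone (adjusted p = 0.178). KRT222 had 1.19 and 1.60 with estradiol, against 2.32 and 2.29 with DMSO (-0.57, SE 0.165, adjusted p = 0.0804), and passed without the second estradiol library (-0.73, adjusted p = 0.0174) or either BPA library. Without the first estradiol library its difference was -0.42 (adjusted p = 0.406). KRT7 overlapped, with 66.6 and 46.7 with estradiol on either side of its DMSO values of 63.4 and 59.0. KRT23 went the other way without passing, with 54.0 and 66.5 with estradiol, against 43.0 and 51.4 with DMSO (0.35, adjusted p = 0.353). KRT4 with 12.8 and 18.5 and KRT10 with 9.96 and 8.56 showed differences of -0.05 and 0.09.

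In all, 11 of the 21 keratins had both estradiol libraries of T-47D above both DMSO libraries, against 16.9% of all genes, and 4 had both below, against 16.4%. Without any 1 of the 4 libraries the first count ran between 12 and 13, beside 26.8 to 41.1% of all genes.

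**Figure D3:**
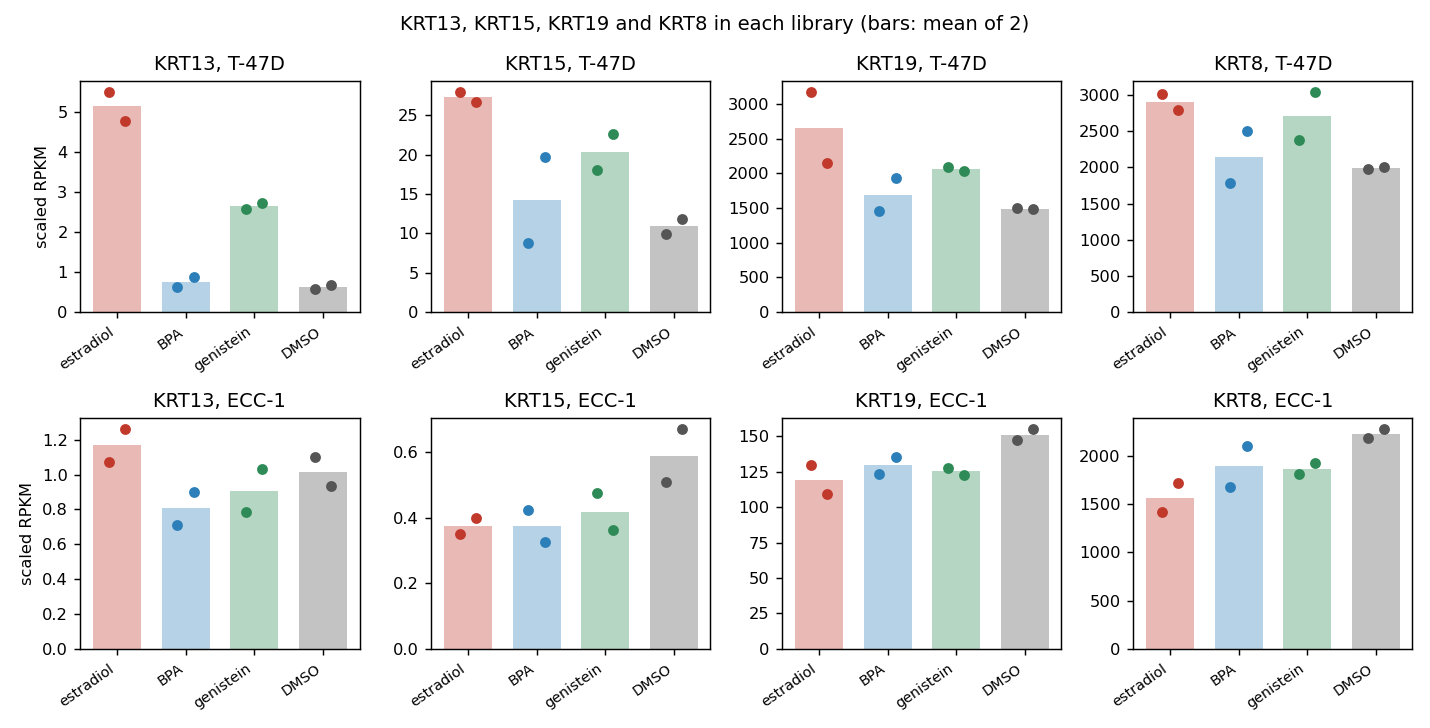
Scaled RPKM of KRT13, KRT15, KRT19 and KRT8 by treatment in T-47D (top) and ECC-1 (bottom), with points for the 2 libraries and bars for their mean, each panel on its own axis from 0. In T-47D, KRT13 has 5.49 and 4.78 with estradiol and 2.58 and 2.74 with genistein, and under 1 with BPA and DMSO.

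Genistein at 100 nM raised KRT13 in T-47D, the 1 keratin of 21 past the test, against 0.803% of all genes (0.781% higher and 0.0217% lower). It had 2.58 and 2.74 scaled RPKM with genistein, against 0.580 and 0.681 with DMSO. Both genistein libraries lay above all BPA and DMSO libraries of T-47D and below both estradiol libraries. The log2 difference was 1.48 (SE 0.152, adjusted p = 0.000169), 4.21-fold in mean level, and held in all 26 alternatives. A further 6 keratins higher and 1 lower had an unadjusted p under 0.05, as had 5.79% of all genes.

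KRT15 had 18.1 and 22.6 scaled RPKM with genistein, above its DMSO values of 9.94 and 11.8, a difference of 0.87 that did not pass (SE 0.254, adjusted p = 0.218). It passed without either BPA library (adjusted p = 0.011 and 0.0111). KRT19 had 2084 and 2037 with genistein, above 1493 and 1484 with DMSO (0.47, adjusted p = 0.537). KRT8 had 2380 and 3043 (0.44, adjusted p = 0.763) and KRT18 1371 and 1544 (0.31, adjusted p = 1) with genistein, above their controls without passing. Among these 4 genes every genistein library lay above both DMSO libraries. KRT23 had 49.7 and 64.6, KRT10 8.61 and 7.46 and KRT4 12.7 and 22.5 with genistein, each overlapping its controls. KRT7 had 55.1 and 45.7 and KRT80 79.6 and 85.6, below their controls without passing. Of the basal keratins, KRT16 had 3.20 and 3.34, KRT17 2.85 and 2.65 and KRT6A 0.623 and 0.592 with genistein, above their controls without passing. KRT5 had 0.285 and 0.125 and KRT14 0.308 and 0.140, both overlapping. KRT6B had 0.175 and 0.274 and KRT6C 0.130 and 0.272. In 10 of 21 keratins both genistein libraries were above both DMSO libraries, against 17.9% of all genes, and in 4 both were below, against 18.5%.

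BPA at 100 nM changed none of the 21 keratins past the test in T-47D by limma, against 0% of all genes, and 1, KRT14, had an unadjusted p under 0.05, as had 0.839% of all genes. KRT13 had 0.639 and 0.888 scaled RPKM with BPA, against 0.580 and 0.681 with DMSO, and the groups overlapped (0.16, 95% interval -0.17 to 0.48). KRT15 had 8.75 and 19.7 with BPA, its 2 libraries on either side of the DMSO pair. The second BPA library was the higher one for most keratins. It had 0.842 of KRT5, where the other 7 T-47D libraries had 0.125 to 0.285, 1.07 of KRT14 and 4.27 of KRT17. In it VIM, the filament gene of mesenchymal cells, had 3.29, against 0.871 to 1.66 in the other 7. Of the markers high in ECC-1, MSX1 had 0.692 in it, against 0.419 to 0.624 in the other 7. SOX17 had 0.0260, against at most 0.0213 in the other 7, and EMX2 was listed at 0. PAX8 was listed at 0 there and in 2 more T-47D libraries. Their part in the BPA values was not tested.

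The first and second BPA libraries had 1787 and 2506 scaled RPKM of KRT8, 1062 and 1421 of KRT18 and 1450 and 1929 of KRT19. In each of these 3 genes the DMSO pair lay between the 2 BPA libraries. KRT4 had 13.2 and 23.2, KRT7 54.7 and 57.3, KRT10 9.17 and 8.56, KRT23 41.1 and 57.8, and KRT80 89.7 and 98.6. KRT14 had 0.211 in the first BPA library, KRT5 0.151 and KRT17 1.68, so the high values of these basal keratins were seen in 1 library. KRT16 had 2.67 and 3.41, KRT6A 0.306 and 0.474, KRT6B 0.150 and 0.157, and KRT6C 0.149 and 0.130. Both BPA libraries were above both DMSO libraries in 3 keratins, against 10.5% of all genes, and below in 1, KRT7, against 10.2%. The 3 treatment comparisons of T-47D share the same 2 DMSO libraries. All 6 treated libraries lay above both DMSO libraries in 2 keratins, KRT16 and KRT6C, against 2.78% of all genes, and below in 0, against 1.95%.

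Genistein and BPA were given at the same dose and time and can be set against each other directly, with 1 test per line over all genes. In T-47D, KRT13 was 3.48-fold higher in mean level with genistein than with BPA (log2 difference 1.33, SE 0.152, adjusted p = 0.00139). It was the only keratin of 21 to pass, against 0.405% of all genes (0.383% higher and 0.0217% lower), and the call ended in a fit of the T-47D libraries alone (adjusted p = 0.117). KRT15 differed by 0.60 (95% interval 0.06 to 1.14, adjusted p = 0.969), or by 1.16 without the second BPA library (adjusted p = 0.0098) and by 0.04 without the first (adjusted p = 1). For KRT19 the difference was 0.30 (95% interval -0.08 to 0.68) and for KRT8 0.35 (-0.06 to 0.76). In ECC-1 none of the 21 passed by limma, against 0.0434% of all genes, and 0 had an unadjusted p under 0.05. There the KRT13 difference was 0.11 (95% interval -0.22 to 0.43). Estradiol was used at 10 nM, a different dose, so its values stand beside the others without a test.

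The 3 keratins that passed the test with estradiol in T-47D are neighbours. They were not the only ones higher, since 11 of 21 had both estradiol libraries above both DMSO libraries, against 16.9% of all genes. Their rank also depends on the added 0.5. In mean level KRT16 was 1.82-fold that of DMSO, against 1.78-fold for KRT19. On a few reads, KRT6C was 3.24-fold and KRT6B 2.29-fold. The ratios of KRT14 and KRT6A, both under 1 scaled RPKM, were 1.77 and 1.73. In the gene order of RefSeq on GRCh38.p14, KRT13, KRT15 and KRT19 follow each other on chromosome 17. The miRNA gene MIR6510 is listed after KRT15 and before KRT19, and the order alone does not say whether it overlaps either gene. The type I genes, apart from KRT18, and KRT222 lie on that chromosome, and the 26 type II genes and KRT18 lie on chromosome 12. KRT36, on the other side of KRT13, is a hair keratin that was not tested and reached at most 0.103 scaled RPKM in T-47D. Beyond KRT19, the next tested keratins of the order are KRT14, KRT16 and KRT17, whose log2 differences with estradiol in T-47D were 0.27, 0.71 and 0.54, none past the test. KRT8 and KRT18 are adjacent on chromosome 12 although they are of different types.

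**Figure D4:**
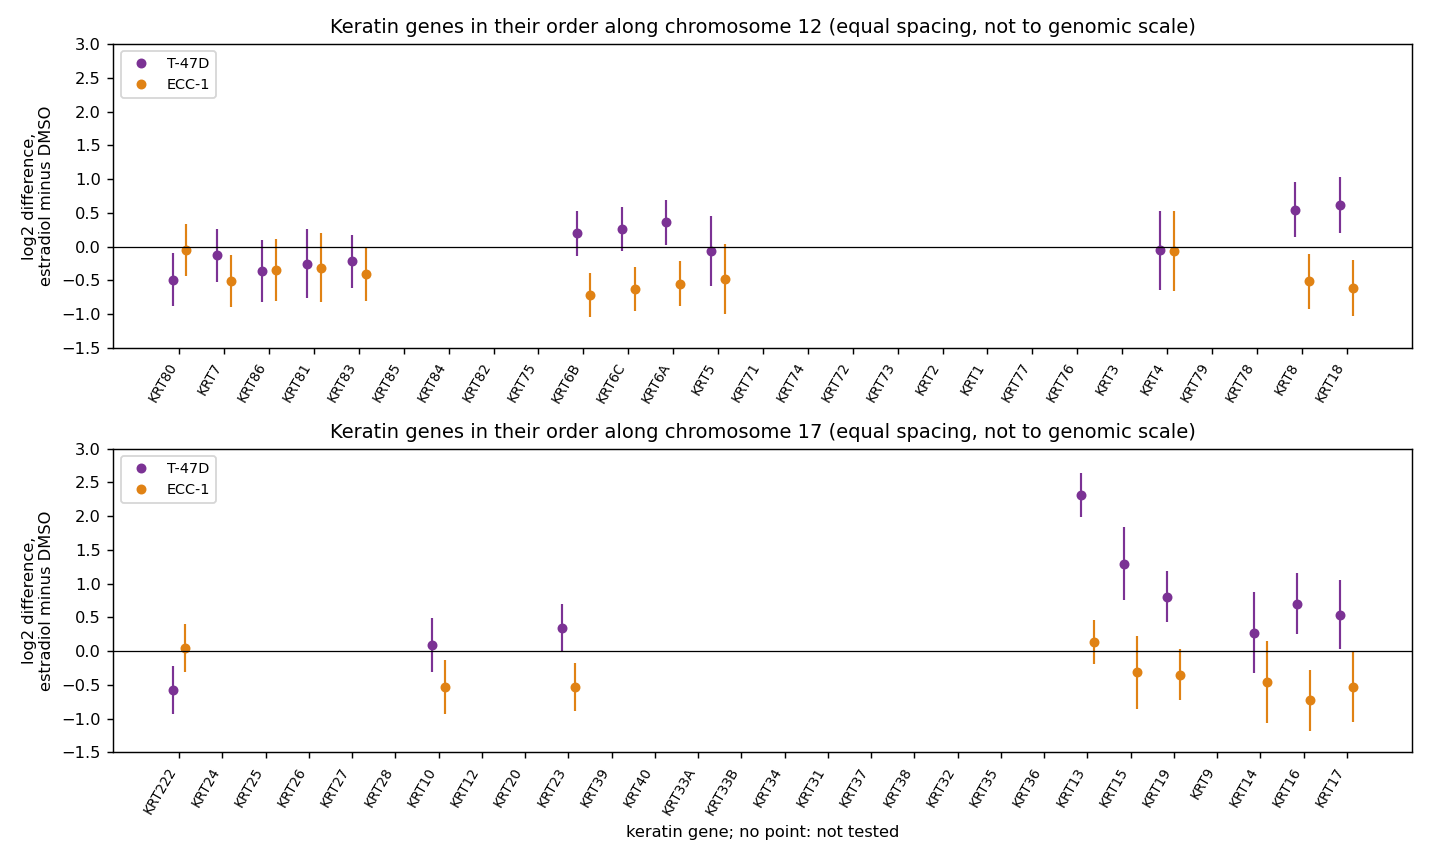
Log2 difference between estradiol and DMSO for tested keratins in gene order along chromosome 12 (top) and chromosome 17 (bottom), genes equally spaced, with 95% intervals. In T-47D the 3 highest points are the neighbours KRT13, KRT15 and KRT19 at 2.32, 1.29 and 0.81.

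In ECC-1 cells most keratins lay below their controls with estradiol, and KRT6B and KRT6C passed the test. They were 2 of 21, both lower, against 1.89% of all genes (1.42% higher and 0.477% lower), and 9 further keratins had an unadjusted p under 0.05, all lower, as had 15.4% of all genes in either direction. The median log2 difference over the 21 was -0.48, against 0 over all genes.

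KRT6B had 2.97 and 2.48 scaled RPKM with estradiol, against 4.27 and 5.37 with DMSO (-0.72, SE 0.155, adjusted p = 0.026). KRT6C had 3.53 and 2.93 with estradiol, against 4.93 and 5.63 with DMSO (-0.63, SE 0.153, adjusted p = 0.0491). Both estradiol libraries were below both controls for each. As near-identical copies they are not separate observations. The KRT6B call held in 21 of 26 alternatives and ended without the first estradiol library (-0.83, adjusted p = 0.0623) or the second DMSO library (-0.57, adjusted p = 0.253). The KRT6C call held in 8 of 26 and ended without any 1 of the 4 estradiol and DMSO libraries (adjusted p between 0.0675 and 0.305). KRT6A, the other copy, had 4.0 and 3.98 with estradiol, against 5.14 and 7.13 with DMSO (-0.55, adjusted p = 0.106).

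KRT5 had 83.2 and 61.9 scaled RPKM with estradiol, against 102.5 and 98.0 with DMSO (-0.48, adjusted p = 0.362). KRT17 had 99.7 and 94.5 with estradiol, against 126.7 and 156.2 with DMSO (-0.53, adjusted p = 0.307). KRT14 had 3.50 and 3.75 with estradiol, against 4.05 and 6.57 with DMSO. In these 3 genes every estradiol library lay below both controls, and none passed the test. KRT16 had 0.220 and 0.431 with estradiol, against 0.850 and 0.859 with DMSO (-0.73, adjusted p = 0.114). KRT15 had 0.349 and 0.398 with estradiol, against 0.507 and 0.670 with DMSO (-0.31).

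Simple-epithelial keratins also lay below their controls. KRT8 had 1417 and 1715 scaled RPKM with estradiol, against 2182 and 2282 with DMSO (-0.52, adjusted p = 0.223). KRT18 had 883 and 1177 with estradiol, against 1539 and 1571 with DMSO (-0.61, adjusted p = 0.151). KRT19 had 129.8 and 109.0 with estradiol, against 147 and 155 with DMSO (-0.35, adjusted p = 0.364). For all 3 the first or second estradiol library was the lowest of the 8 ECC-1 libraries. KRT7 had 6.67 and 8.31 with estradiol, against 9.36 and 12.4 with DMSO (-0.50). KRT23 had 4.83 and 5.16 with estradiol, against 7.33 and 7.53 with DMSO (-0.53). KRT10 had 3.86 and 6.93 with estradiol, against 7.57 and 7.91 with DMSO (-0.53). In that gene the first estradiol library was well under the second, and EPCAM, an epithelial surface marker, had 183.4 in it, against 234.5 to 276.4 in the other 7 ECC-1 libraries. Without the second estradiol library KRT10 (-0.92), KRT16 (-0.91), KRT18 (-0.82) and KRT8 (-0.66) passed, with adjusted p between 0.00311 and 0.0481. Without the first, the 4 differences were -0.15, -0.54, -0.40 and -0.38 in the same order of genes, and none passed (adjusted p between 0.695 and 1). The part of the lower EPCAM in these values was not tested. KRT80 had 136.2 and 90.3 with estradiol, overlapping its DMSO values of 97.2 and 135.2 (-0.05). KRT13 had 1.07 and 1.26 with estradiol, overlapping 1.10 and 0.936 with DMSO (0.14, 95% interval -0.19 to 0.46), and KRT4 had 0 and 0.0206.

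BPA and genistein values lay below DMSO in ECC-1 as well, with no keratin past the test by limma, against 0.195% of all genes for BPA and 0.969% for genistein. At an unadjusted p under 0.05 there were 4 lower with BPA and 1 lower with genistein, against 2.51% and 7.67% of all genes in either direction. The 3 comparisons share the same 2 DMSO libraries and are not independent. KRT8 had 1682 and 2105 with BPA and 1812 and 1922 with genistein. KRT18 had 1167 and 1462 with BPA and 1180 and 1279 with genistein. KRT19 had 123 and 136 with BPA and 128 and 123 with genistein. Each treated library of these 3 simple-epithelial genes lay below both DMSO libraries. KRT5 had 80.8 and 71.9 with BPA and 83.3 and 72.5 with genistein. KRT17 had 95.2 and 103.7 with BPA and 101.4 and 109.5 with genistein. The same held for these basal keratins.

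KRT6A had 4.01 and 4.28 scaled RPKM with BPA and 4.66 and 4.95 with genistein. KRT6B had 3.17 and 3.10 with BPA and 3.82 and 3.62 with genistein. KRT6C had 4.0 and 3.48 with BPA and 4.32 and 4.15 with genistein. The BPA libraries of the 3 copies lay below the genistein libraries. KRT7 had 7.72 and 9.68 with BPA and 8.54 and 9.57 with genistein, KRT10 had 6.51 and 6.71 with BPA and 6.40 and 6.80 with genistein, and KRT14 had 3.67 and 3.26 with BPA and 3.80 and 4.0 with genistein. Of these, KRT7 alone overlapped its controls. KRT23 had 6.36 and 6.35 with BPA and 4.95 and 4.96 with genistein, where its difference from DMSO was -0.54 (adjusted p = 0.248). KRT80 had 99.3 and 99.2 with BPA and 100.1 and 98.3 with genistein, within its DMSO range. KRT13 had 0.712 and 0.902 with BPA and 0.785 and 1.03 with genistein, KRT15 0.422 and 0.326 with BPA and 0.476 and 0.360 with genistein, and KRT16 0.457 and 0.314 with BPA and 0.392 and 0.641 with genistein. KRT15 and KRT16 lay below both controls throughout, and KRT13 overlapped them with genistein. KRT4 had 0 and 0.0131 with BPA and 0.0327 and 0 with genistein.

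Both DMSO libraries lay above all 6 treated ECC-1 libraries in 15 of 21 keratins, or 71.4%, against 8.73% of all genes. None of the 21 lay above DMSO in all 6, against 8.29% of all genes. Without any 1 of the 8 libraries the count ran between 15 and 18, and without the second DMSO library it was 15 beside 24.2% of all genes. With estradiol, 17 of 21 lay below both controls and 0 above, against 21.8% and 21.7% of all genes. With BPA these were 17 below and 0 above, against 19.7% and 15.3%, and with genistein 16 below and 0 above, against 29.2% and 21.9%. The shared control pair sets part of each count, and a difference of the controls and a response to every compound cannot be told apart. The 5 epithelial markers had a median log2 difference of -0.03 with estradiol, -0.06 with BPA and -0.02 with genistein, and the 6 Mullerian markers 0.04, 0.02 and 0.10.

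**Figure D5:**
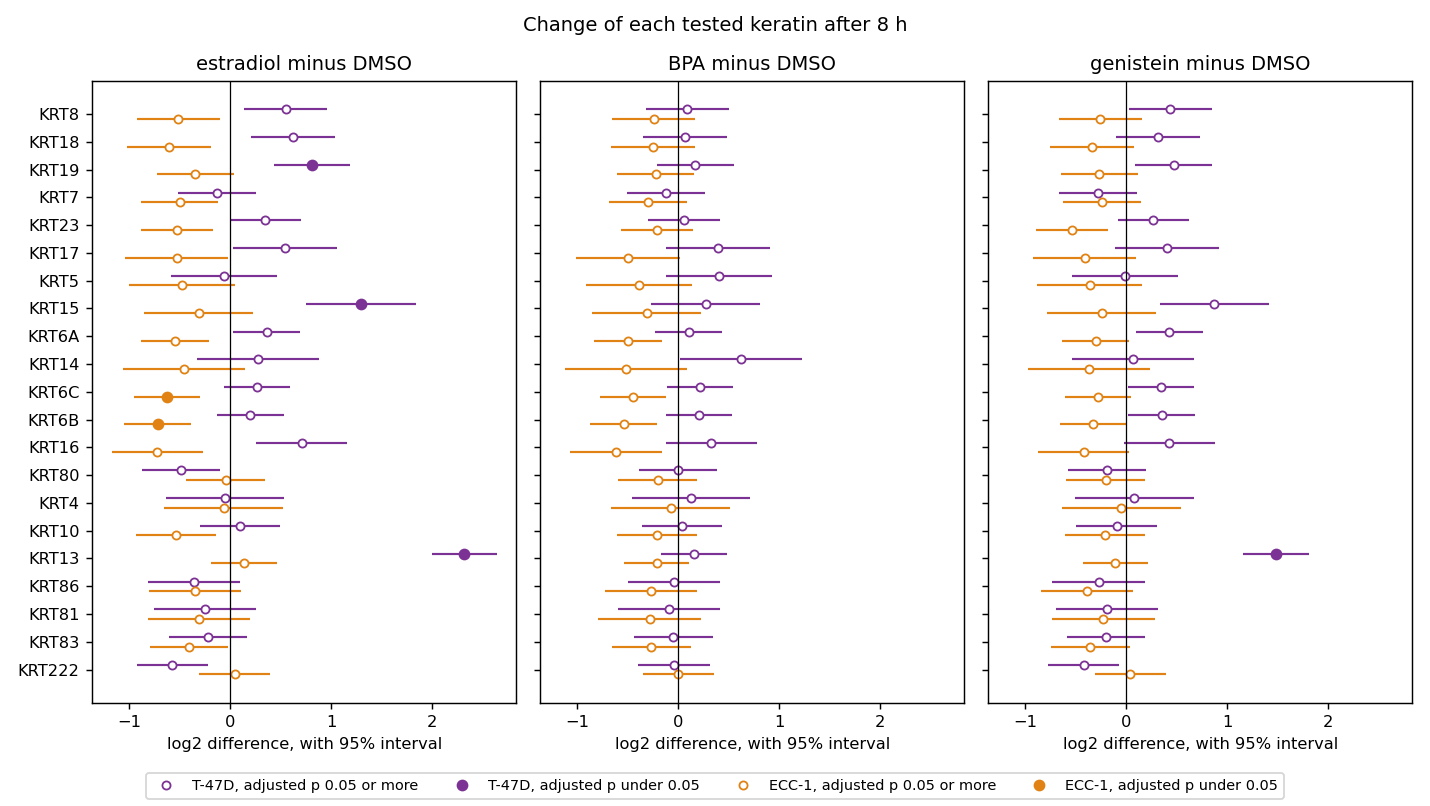
Log2 difference from DMSO (scaled RPKM + 0.5) with 95% interval for each tested keratin after estradiol, BPA and genistein, T-47D above ECC-1 in each pair, filled where the adjusted p is under 0.05. KRT13, KRT15 and KRT19 are filled for estradiol in T-47D, KRT6B and KRT6C for estradiol in ECC-1, and KRT13 for genistein in T-47D.

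Set against each other, the estradiol responses of the lines differed for 6 of 21 keratins, each higher in T-47D, against 1.73% of all genes (0.89% higher and 0.839% lower). KRT13 differed by 2.18 on the log2 scale (SE 0.215, adjusted p = 8.6e-05) and held in all 25 alternatives. KRT15 differed by 1.61 (SE 0.359, adjusted p = 0.0336), KRT16 by 1.43 (SE 0.299, adjusted p = 0.0224), KRT18 by 1.23 (SE 0.275, adjusted p = 0.0341), KRT19 by 1.15 (SE 0.252, adjusted p = 0.0292) and KRT6B by 0.91 (SE 0.22, adjusted p = 0.0494). The calls other than KRT13 held in 7 to 17 of 25 or 26 alternatives. All 5 ended without the second DMSO library of T-47D (adjusted p between 0.0842 and 0.199), the first of ECC-1 (0.0598 to 0.133) or the second of ECC-1 (0.0813 to 0.214). The T-47D side of KRT6B rests on at most an estimated 10.9 reads a library. On the ECC-1 side each difference rests on the DMSO pair that lay above all 6 treated libraries in 15 of 21 keratins. Of the genes called here, KRT13 alone is not among those 15. For the others a difference of these controls and a response cannot be told apart. Without both first estradiol libraries KRT15 (1.53, adjusted p = 0.162), KRT16 (0.89, adjusted p = 0.164) and KRT18 (0.82, adjusted p = 0.164) no longer passed, and KRT6C did (1.17, adjusted p = 0.0212). Without the first of T-47D alone, KRT15, KRT16, KRT18 and KRT19 did not pass (adjusted p between 0.0637 and 0.119), and without the first of ECC-1 alone KRT15, KRT16, KRT18 and KRT6B did not (0.0673 to 0.146). Just outside the threshold were KRT6C with 0.89 (adjusted p = 0.0523), KRT6A with 0.91 (adjusted p = 0.053) and KRT8 with 1.06 (adjusted p = 0.0679). KRT17 passed without either BPA library of T-47D (1.07, adjusted p = 0.00674 and 0.00676), and KRT6A, KRT6C, KRT8, KRT10 and KRT23 passed without the second estradiol library of ECC-1. None of these 5 passed without the first (0.91, 1.01, 0.93, 0.24 and 0.83, adjusted p between 0.067 and 0.694). The median difference over the 21 was 0.88, against -0.01 over all genes. For genistein only KRT13 passed, by 1.59 (SE 0.215, adjusted p = 0.00149), against 0.586% of all genes (0.239% higher), and held in all 25 alternatives. At an unadjusted p under 0.05 there were 11, each higher in T-47D, against 4.69% of all genes in either direction. KRT15 passed too without either BPA library of T-47D (1.11, adjusted p = 0.0285 and 0.0289). For BPA none passed by limma, against 0.0434% of all genes, with 7 at an unadjusted p under 0.05, each higher in T-47D, against 1.41% of all genes in either direction. KRT17 passed without the first BPA library of T-47D (1.45, adjusted p = 0.0251), which leaves the library where it was high.

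Genes related to keratins or to epithelial identity were read from 5 lists of 83 genes, of which 57 were tested. The lists hold other intermediate filament genes, genes of desmosomes, keratin linkers and the cornified envelope, and epithelial transcription factor genes. Between the lines 50 of the 57 differed, against 76.7% of all genes (39.6% higher and 37.1% lower in T-47D). As for the keratins, the filter favours a difference for genes at or near 0 in 1 line, among them INA, S100A9, IVL, S100A8, KLK5 and GRHL3. Their calls describe the lines and are not taken as added evidence. Of the other intermediate filament genes, INA, a neuronal filament gene, was listed at 0 in both T-47D DMSO libraries and had 15.1 and 18.4 scaled RPKM in ECC-1. BFSP1, known from the lens, had 8.65 and 9.32 in T-47D, against 0.590 and 0.743 in ECC-1. VIM, the filament gene of mesenchymal cells, had 0.871 and 1.66 in T-47D, against 0.0877 and 0.137 in ECC-1, and SYNM, a large partner filament gene, was lower in T-47D (log2 difference -2.58). Of 18 tested genes of desmosomes and hemidesmosomes, T-47D had 4 higher and 11 lower. LAMB3, a subunit of the laminin that hemidesmosomes bind, had 0.652 and 0.614 in T-47D, against 46.1 and 62.0 in ECC-1. The desmosomal plaque gene PKP1 was also lower in T-47D (log2 difference -2.99). DST, which encodes a linker of keratins to hemidesmosomes, went the other way, with 36.9 and 46.4 in T-47D, against 3.23 and 3.22 in ECC-1.

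Of 10 genes for plakin linkers and other keratin-binding proteins, T-47D had 7 higher and 1 lower, with EVPL higher by 2.75 (SE 0.244), PLEC by 2.31 (SE 0.26) and FAM83H by 1.12 (SE 0.211), with MACF1 lower (-1.42, SE 0.173). Of the 19 cornified envelope genes 5 were tested, with 4 higher and 1, TGM1, lower in T-47D (-0.42 for TGM1). S100A9 had 12.4 and 15.2, IVL 3.07 and 3.78 and S100A8 1.77 and 1.78 in T-47D DMSO libraries, and all 3 were listed at 0 in the ECC-1 DMSO libraries. KLK5, a protease of the shedding horny layer, had 1.12 and 0.782 in T-47D, against 0 and 0.0209 in ECC-1. Of 15 tested transcription factor genes of epithelial identity 12 were higher and 2, KLF5 (-2.89) and OVOL2 (-0.61), lower in T-47D. The line had 71.3 and 61.1 of ELF5, 37.5 and 41.9 of TFAP2A, 11.5 and 12.4 of GRHL3 and 63.9 and 80.2 of EHF, against at most 4.09 in ECC-1 for any of these 4. TP63, the basal cell factor gene, stayed at or under 0.154 in T-47D and 0.440 in ECC-1, where KRT5 was high.

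With treatment none of the 57 associated genes passed the test by limma in either line, nor in the genistein against BPA comparison or the comparisons of responses. The lowest adjusted p was 0.0534, with estradiol in T-47D. At an unadjusted p under 0.05 there were 12 of the 57 with estradiol in T-47D (14.8% of all genes), 0 with BPA (0.839%) and 4 with genistein (5.79%). In ECC-1 there were 7 with estradiol (15.4% of all genes), 1 with BPA (2.51%) and 5 with genistein (7.67%). The comparisons of the 2 lines' responses gave 12 for estradiol (16.5% of all genes), 1 for BPA (1.41%) and 1 for genistein (4.69%). Log2 differences with estradiol ran between -0.60 and 0.49 in T-47D and between -0.58 and 0.66 in ECC-1, all smaller than those of KRT13, KRT15 and KRT19 in T-47D.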

How the data were processed

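RNA-seq libraries were made from polyadenylated RNA of T-47D and ECC-1 cells by a transposase method without strand, per the labels' protocols. The authors deposited RPKM values per library for 32062 rows named by symbol and RefSeq accession. Reads were aligned with Bowtie to hg19, per the submitters' processing notes. The sources used here give neither versions nor the counting method. Depth, 17.4 to 29.4 M reads, was read off the smallest RPKM increments in each library (61.8 to 63.8% of values under 10 reads within 0.1 of a whole read, 20% by chance). Counts were not recovered.

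Each symbol was represented by its transcript of highest mean RPKM. Libraries were scaled by the median ratio over 7547 genes with at least 5 RPKM throughout (factors 0.938 to 1.054). The 13827 genes reaching 1 RPKM in 2 or more libraries were fitted on log2(scaled RPKM + 0.5) with limma 3.58.1 in R 4.3.3 (8 group means, eBayes with trend, 8 residual and 6.9 prior degrees of freedom), with Benjamini-Hochberg adjustment per contrast. The script was tested on simulated data. Summaries used Python 3.11.15.

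The members and lists were chosen with earlier results of these data known. Values in every library are given for keratins with a group mean of at least 5 scaled RPKM and for those called in a treatment, interaction or genistein against BPA contrast. Of each associated list, up to 4 genes with the largest line difference are named, apart from 1 gene not reported here. Mean scaled RPKM are shown with SD over 2 libraries. Alternatives covered pseudocounts, filters, scaling, summed transcripts, array weights, a replicate block, single-line fits and left-out libraries. Shared 36-base stretches were counted among keratin gene and pseudogene transcripts of GENCODE v29, and other genes were not searched. Coordinates come from GRCh38.p14, since no hg19 annotation was used here.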

Additional observations from a re-analysis of the deposited data

Results flagged for a closer look

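The estradiol response differed between T-47D and ECC-1 for 6 keratins, by the interaction term of the limma fit, each higher in T-47D. The differences on the log2 scale were 2.18 for KRT13, 1.61 for KRT15, 1.43 for KRT16, 1.23 for KRT18, 1.15 for KRT19 and 0.91 for KRT6B. The genistein response of KRT13 differed in the same way, by 1.59. KRT16 and KRT18 did not pass the test within either line, KRT6B passed in ECC-1, and KRT13, KRT15 and KRT19 passed in T-47D. Both T-47D libraries with estradiol lay above their DMSO libraries in KRT13, KRT15, KRT16, KRT18 and KRT19, and both ECC-1 libraries with estradiol lay below theirs in KRT15, KRT16, KRT18, KRT19 and KRT6B. The ECC-1 DMSO pair lay above all 6 treated libraries in 15 of 21 keratins, among them every gene called here except KRT13. A difference of these controls and a response cannot be told apart there. The estradiol calls other than that of KRT13 also depended on single DMSO libraries.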

How the results depend on the processing

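KRT13 kept its estradiol and genistein calls in T-47D in every alternative in which it was tested, and the line differences of KRT5, KRT17, KRT19, KRT4, KRT7, KRT15 and KRT23 kept theirs. Quantile normalization reversed KRT8 (0.85) and KRT18 (0.35) between the lines. With only genes of a mean of at least 5 RPKM, the keratins called numbered 7 between the lines (17 in the analysis reported), 0 for estradiol in ECC-1 (2), 0 for genistein in T-47D (1), 3 for the estradiol interaction (6), 0 for the genistein interaction (1) and 0 for genistein against BPA in T-47D (1), since KRT13 and other low keratins drop out of the test. For estradiol in ECC-1 the count was 0 with a pseudocount of 0.1, 1 with no filter and 1 with summed transcripts. With no filter it was 3 for genistein in T-47D and 1 for the estradiol interaction. With array weights it was 0 for estradiol, 1 for BPA and 1 for genistein in ECC-1, 1 for estradiol in T-47D (3), 1 for the estradiol interaction and 3 for the genistein interaction. In fits of 1 line alone it was 0 for estradiol in ECC-1, 1 for estradiol in T-47D and 0 for genistein against BPA in T-47D. Without both first estradiol libraries the genistein interaction gave 2. Leaving out each library in turn gave 0 to 5 for estradiol in ECC-1, 1 to 6 for estradiol in T-47D, 1 to 2 for genistein in T-47D, 1 to 11 for the estradiol interaction, 0 to 1 for the BPA interaction, 1 to 2 for the genistein interaction and 1 to 2 for genistein against BPA in T-47D. A lone library left in a group is then assumed to vary like the others. Counts of keratins without overlap, with libraries left out, were added after seeing the data. The cause of these changes was otherwise not tested.

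Libraries of the same replicate number did not deviate together in all pairs of groups (correlations from -0.224 to 0.408), so the numbers were not taken as pairs. With the replicate number as a block within each line, the keratins called were 10 for the estradiol interaction, where KRT6A, KRT6C, KRT8 and KRT23 passed as well (adjusted p = 0.048, 0.0458, 0.0329 and 0.00815), 1 for genistein in ECC-1 and 2 for the genistein interaction. Over all alternatives, values of single keratins lost a call 100 times and gained one 56 times, and counts of associated genes by list gained 40 times and lost 3 times. With 2 libraries a group, the 95% interval of a treatment difference reached 0.32 to 0.61 on the log2 scale on each side among the keratins, and differences up to 0.87 did not pass.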
